A study of Mus musculus with 2 samples.

Results

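The Ly49 receptor genes were followed here in cells taken from WT mouse hearts on day 7 after a myocardial infarction (MI, loss of heart muscle when its blood flow is cut off). They were chosen by symbol, as the rows Klra1, Klra3, Klra4, Klra6, Klra7, Klra8 and Klra9 that stand in both raw count matrices, and make up 7 of the 55357 genes listed. Both groups had undergone MI; one came from mice given anti-IgG, the comparison antibody, and the other from mice given anti-PD1, an antibody against the inhibitory T cell receptor encoded by Pdcd1. Each group was 1 droplet library. Differences between groups therefore have no check by replicates, no p-values are printed, and the 95% intervals cover counting error within these libraries only. The number, age and sex of the mice are not given in the sources used here, nor is the antibody dose. The strain is not given beyond WT; strains differ in their set of Ly49 genes, and reads of a gene that the mm10 reference lacks could have been counted under one that it holds.

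Sequencing gave 4380 anti-IgG and 6026 anti-PD1 barcodes. Their UMIs (unique molecular identifiers, which count captured RNA molecules) came to 22806806 and 29046341. After filters on genes, UMIs and mitochondrial UMIs, 4309 and 5835 cells were kept, with medians of 4079 and 3858 UMIs per cell. The cells are labelled as T cells, and a UMI of Cd3d, Cd3e or Cd3g was present in 92.6% and 91.7% of them. The design text speaks of sorted cells, but the protocols record no sort, and B and myeloid marker cells were present. The libraries shared 47 barcodes, of which 46 were kept in both; those cells held 28 anti-IgG and 17 anti-PD1 UMIs of the Ly49 genes.

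Ly49 receptors are lectin-like proteins on the surface of mouse natural killer (NK) cells and of some T cells, and their genes lie in the NK gene complex on chromosome 6. They bind MHC class I molecules on other cells. The inhibitory members Klra1 (Ly49A), Klra3 (Ly49C), Klra6 (Ly49F), Klra7 (Ly49G) and Klra9 (Ly49I) carry a tyrosine motif, the ITIM, in their cytoplasmic tail and recruit the phosphatase SHP-1, encoded by Ptpn6. The activating members Klra4 (Ly49D) and Klra8 (Ly49H, which recognises a protein of mouse cytomegalovirus) lack that tyrosine and signal through the adaptor DAP12, encoded by Tyrobp. Each NK cell is known to express only some of the genes, so that a population carries many combinations.

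The division between inhibitory and activating members can be read near the start of their coding sequences. The first 36 coding bases of each gene are shown, 5′ to 3′, because codon 8, in capitals, differs between the groups. They come from the GENCODE transcripts of the GRCm38/mm10 reference, on the minus strand, in 1 exon each, at chr6:130380627-130380662 for Klra1, chr6:130335764-130335799 for Klra3, chr6:130025184-130025219 for Klra6, chr6:130231582-130231617 for Klra7, chr6:130191266-130191301 for Klra9, chr6:130065267-130065302 for Klra4 and chr6:130128125-130128160 for Klra8.
Klra1: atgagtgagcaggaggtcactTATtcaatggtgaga
Klra3: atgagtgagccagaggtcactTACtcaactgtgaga
Klra6: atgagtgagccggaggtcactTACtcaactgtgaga
Klra7: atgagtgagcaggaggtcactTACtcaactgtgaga
Klra9: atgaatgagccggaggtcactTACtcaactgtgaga
Klra4: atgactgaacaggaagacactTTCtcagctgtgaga
Klra8: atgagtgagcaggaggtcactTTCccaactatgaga
The 5 inhibitory genes have a tyrosine codon (TAT or TAC) at this place and the 2 activating genes a phenylalanine codon (TTC). Outside that codon the stretches are alike, and over the whole coding sequence identity between members ran from 76.8% for Klra3 and Klra4 to 95.9% for Klra3 and Klra9. Klra8 was 91.9% identical to Klra9, and Klra4 88.3% identical to Klra1, so an activating gene can stand closer to an inhibitory gene than inhibitory genes do to each other.

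Such likeness bears on how reads were assigned to each gene. Every 90-base stretch of the Klra1, Klra4 and Klra6 transcripts occurred in no other annotated transcript. The share of such stretches was 96.4% for Klra3, 95.7% for Klra7, 92.5% for Klra9 and 83.9% for Klra8. Klra3 shared stretches with Klra10, Klra7 with the pseudogene Klra13-ps, Klra9 with Klra8, Klra10 and Klra11-ps, and Klra8 with Klra9 and Klra14-ps. In the last 500 bases, which a 3′ kit reads, shares were 100% for Klra8, 92.2% for Klra3, 89.8% for Klra7 and 81.0% for Klra9. If that end was read, values of Klra3, Klra7 and Klra9 are uncertain to that extent. In the first 500 bases the share was 61.6% for Klra8 and 100% for each other member. The kit is labelled 3′ but was not checked against a barcode list. Which of these genes is the more uncertain is therefore not settled.

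Cells were placed in gates by marker UMIs. The NK-marker gate held cells with a UMI of at least 2 of the 4 genes Ncr1, Klrb1c, Klre1 and Fcer1g. The Cd8b1 gate held the remaining cells with a Cd8b1 and a Cd3 UMI, and the other T gate the remaining cells with a Cd3 UMI. The NK-marker gate was the smallest of these, with 125 cells in the anti-IgG library (2.90% of kept cells, interval 2.42% to 3.45%) and 260 in the anti-PD1 library (4.46%, interval 3.94% to 5.02%). The Cd8b1 gate held 1154 and 1521 cells, and the other T gate 2717 and 3585.

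Ly49 transcripts lay mostly in the small NK-marker gate. It held 64.3% of all Ly49 UMIs in the anti-IgG library and 64.6% in the anti-PD1 library, while the Cd8b1 gate held 14.0% and 13.3% and the other T gate 21.2% and 21.7%. Summed over the 7 genes, the level was 542 and 501 CPM (UMIs scaled to a total of 1000000 in the gate) in the NK-marker gate, 16.2 and 21.2 in the Cd8b1 gate and 16.03 and 22.6 in the other T gate. Cells with B markers or myeloid markers and no Cd3 UMI, which should lack these genes, gave the background: 0 of 59 and 1 of 138 B cells and 1 of 52 and 0 of 114 myeloid cells had a Ly49 UMI, and over these cells together the Ly49 level was 1.69 and 0.935 CPM. Median depths were 2812 and 2436.5 UMIs per cell in the B gate and 5286.5 and 5370.5 in the myeloid gate, against 5109.5 and 4799 in the Cd8b1 gate and 3735 and 3513 in the other T gate.

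**Figure D1:**
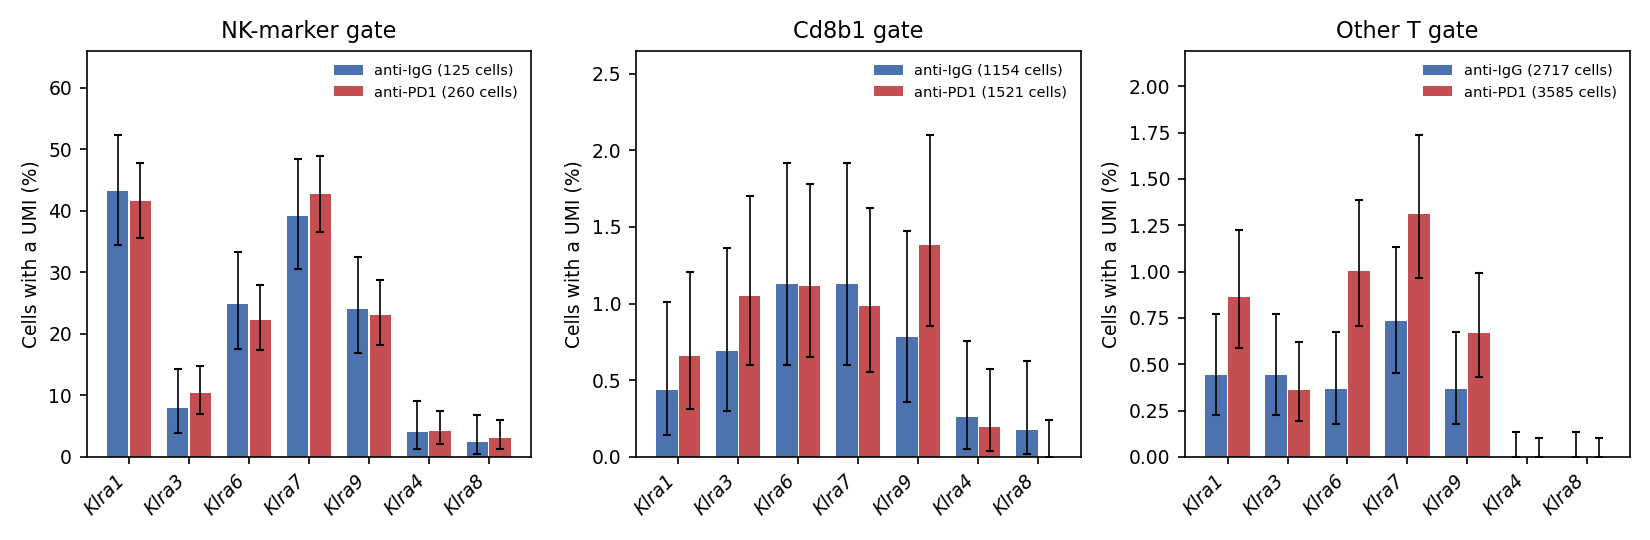
Percent of cells with a UMI of each Ly49 gene in the NK-marker, Cd8b1 and other T gates of the anti-IgG and anti-PD1 libraries, with exact 95% intervals as error bars. Each panel has its own vertical scale: Klra1 and Klra7 were seen in about as many NK-marker cells in either library, near 40%, and no gene reached 1.5% in the other gates.

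Klra7 and Klra1 were the most often detected inhibitory genes of the NK-marker gate. Klra1 was present in 54 of 125 anti-IgG cells (43.2%, interval 34.4% to 52.4%) and 108 of 260 anti-PD1 cells (41.5%, interval 35.5% to 47.8%). Klra7 was present in 39.2% (30.6% to 48.3%) and 42.7% (36.6% to 49.0%). The order of Klra1 and Klra7 thus differed between the libraries, and their intervals overlapped in both.

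Klra6 and Klra9 formed a second level. Klra6 was seen in 24.8% and 22.3% of NK-marker cells and Klra9 in 24.0% and 23.1%, again with overlapping intervals. Klra3 was seen in 8.0% and 10.4%. The activating genes were the rarest, with Klra4 in 5 of 125 and 11 of 260 cells (4.0% and 4.23%) and Klra8 in 3 and 8 cells (2.4% and 3.08%). CPM count captured transcript ends, by the kit's label 3′ ends, and are not scaled for transcript length. In CPM, Klra7 stood at 197 and 181, Klra1 at 172 and 137, Klra9 at 74.1 and 78.0 and Klra6 at 64.7 and 56.2.

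Most cells of the NK-marker gate carried some Ly49 transcript. At least 1 UMI of the 7 genes was found in 91 of 125 anti-IgG cells (72.8%, interval 64.1% to 80.4%) and in 197 of 260 anti-PD1 cells (75.8%, interval 70.1% to 80.8%). A cell with any held a median of 5 and 4 Ly49 UMIs and at most 27 and 23. The median depth in the gate was 5742 and 5325 UMIs per cell. After each cell was thinned to 2000 UMIs, which left out 3 and 7 shallower cells, the share with a Ly49 UMI was 57.4% and 58.5%, with Klra1 in 31.1% and 26.1% and Klra7 in 29.5% and 27.3%.

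The cells that carried Ly49 transcripts in the NK-marker gate were almost all Cd3-bearing. A Cd3 UMI was present in 121 of the 125 cells of the gate in the anti-IgG library and 246 of the 260 in the other, with medians of 14 and 13 Cd3 UMIs over all its cells. The gate is therefore called by its markers and not as NK cells. In the Cd3-bearing cells Trac, the constant region of the T cell receptor alpha chain, was seen in 68.6% and 58.5%, Tyrobp in 46.3% and 54.9%, Ncr1, the NK receptor NKp46, in 15.7% and 19.9%, Cd8a in 31.4% and 24.4%, and Zbtb16, a regulator of innate-like T cells, in 14.9% and 16.3%. Trav11, the V segment of invariant NKT cells, was seen in 2 of 121 and 0 of 246 cells.

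Inhibitory and activating genes differed in which of these cells they occupied. Among Cd3-bearing cells of the gate, Klra1 was found in 43.8% and 43.5%, Klra7 in 39.7% and 43.9%, Klra6 in 25.6% and 23.6%, Klra9 in 24.0% and 22.4% and Klra3 in 8.26% and 10.2%. Klra4 was found in 2 of 121 and 3 of 246 of them, and Klra8 in 0 of 121, which allows a share of cells with a UMI of up to 2.48%, and in 1 of 246. These shares limit detection at this depth, not low expression.

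In the 4 anti-IgG and 14 anti-PD1 cells of the gate without a Cd3 UMI the activating genes were common. Klra4 was found in 3 of 4 and 8 of 14 of these cells and Klra8 in 3 of 4 and 7 of 14. They held 10 of the 15 activating UMIs of the anti-IgG gate and 45 of the 55 of the anti-PD1 gate. Among the inhibitory genes, Klra9 was found in 1 of 4 and 5 of 14, Klra7 in 1 of 4 and 3 of 14, Klra1 in 1 of 4 and 1 of 14, Klra3 in 0 of 4 and 2 of 14, and Klra6 in 0 of 4 and 0 of 14.

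The Cd3-free cells were few, and their NK marker genes, such as Ncr1 in 4 of 4 and 11 of 14, are in part fixed by the gate. Of genes the gate did not use, Tyrobp was found in 4 of 4 and 13 of 14, Gzma (granzyme A) in 4 of 4 and 9 of 14 and Prf1 (perforin) in 3 of 4 and 6 of 14. T cell genes were found in some of the anti-PD1 cells, with Trac in 2, Trbc1 in 3, Trbc2 in 5, Il7r in 5 and Cd28 in 7 of the 14, and 1 cell held 19 Cd8b1 UMIs, while none of these genes was found in the 4 anti-IgG cells. Their depth differed from that of the Cd3-bearing cells, with medians of 1693 and 4415.5 UMIs per cell against 5795 and 5397.5. Klra8 shares transcript stretches with the pseudogene Klra14-ps, which was found in 0 of 4 and 4 of 14 of the Cd3-free cells.

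**Figure D2:**
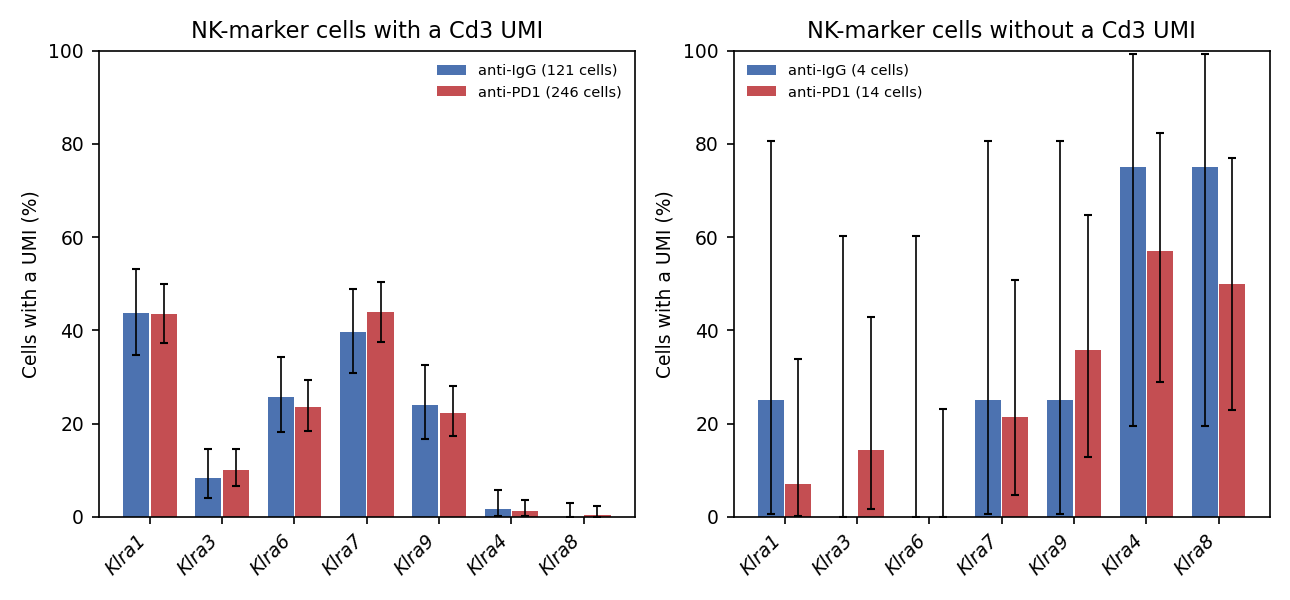
Percent of NK-marker gate cells with a UMI of each Ly49 gene, for cells with and without a Cd3 UMI in each library, with exact 95% intervals as error bars. Klra4 and Klra8 stand at 57.1% and 50% of the 14 Cd3-free anti-PD1 cells and at or below 1.65% of Cd3-bearing cells. Klra1, Klra6 and Klra7 are seen in larger shares of the Cd3-bearing cells. The Cd3-free cells number only 4 and 14 and have lower median depths. Their intervals are wide, and for Klra6 and Klra7 they overlap those of the Cd3-bearing cells.

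Across both libraries, 11 Cd3-free cells had a UMI of Klra4 or Klra8. All 11 also had Tyrobp UMIs, from 2 to 18 per cell, the adaptor through which both receptors signal, and 10 of the 11 had 0 Trac UMIs. Within the gate Klra4 and Klra8 occurred together in 3 anti-IgG and 7 anti-PD1 cells, all without a Cd3 UMI. The anti-PD1 cell with the most Klra4 UMIs held 8 of them with 7 of Klra9 and 4 of Klra7, and another held 2 of Klra4, 5 of Klra8, 6 of Klra7 and 2 of Klra1, so activating and inhibitory transcripts could occur in 1 cell. In the whole gate, 86 and 185 cells had inhibitory genes only, 2 and 4 had activating genes only, 3 and 8 had both and 34 and 63 had neither.

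Outside the NK-marker gate every activating UMI of the kept cells lay in the Cd8b1 gate. Klra4 or Klra8 UMIs were present in 4 anti-IgG and 3 anti-PD1 cells of the Cd8b1 gate, which held 4 to 41 Cd3 UMIs each. All 7 of these cells had 0 UMIs of Tyrobp and 0 of Ncr1. One anti-IgG cell of these, with 38 Cd3 UMIs, held 4 UMIs of Klra4, 4 of Klra8 and 2 of Klra6. In the other T gate, 0 of 2717 and 0 of 3585 cells had a Klra4 or Klra8 UMI, which allows shares of up to 0.110% and 0.0837%.

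Single cells of the NK-marker gate carried from 0 to 4 different Ly49 genes, and none carried 5 or more. In the anti-IgG library, 34, 31, 36, 17 and 7 of the 125 cells had 0, 1, 2, 3 and 4 genes. In the anti-PD1 library the numbers were 63, 72, 73, 43 and 9 of 260. The mean was 1.46 and 1.47 genes per cell, and 48.0% and 48.1% of cells had at least 2. After thinning to 2000 UMIs, 26.2% and 24.5% had at least 2.

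Cells without any Ly49 gene and cells with 4 were more frequent than the product of the single-gene shares would give. That product, which treats the genes as independent, gives 21.3 and 43.3 cells with 0 genes against the 34 and 63 observed, and 2.82 and 6.26 cells with 4 genes against 7 and 9. Cells with exactly 1 gene were fewer than the product, at 31 and 72 against 46.9 and 96.8. Cells differ in depth, which moves all genes of a cell together. After thinning to 2000 UMIs the departures had the same direction. Cells with 0 genes numbered 52 and 105 against 41.7 and 92.2 by the product, and cells with 1 gene 38 and 86 against 52.0 and 105. Cells with 4 genes numbered 2 and 2 against 0.386 and 0.974. These comparisons carry no test.

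The most frequent combination was Klra1 with Klra7 and no other member, in 12 anti-IgG cells (9.6%) and 30 anti-PD1 cells (11.5%). Klra1 alone was found in 11 and 22 cells, Klra9 alone in 10 and 18, Klra1 with Klra6 and Klra7 in 9 and 16, Klra6 with Klra7 in 7 and 11 and Klra7 alone in 5 and 19. Klra9 was thus more often alone than Klra7 in the anti-IgG library, and about as often alone in the anti-PD1 library.

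Pairs of inhibitory genes were not seen together to the same degree. Klra6 and Klra7 were found in the same cell 22 and 41 times, 1.81 and 1.66 times the product of their shares. Klra1 and Klra7 were found together 32 and 64 times, 1.51 and 1.39 times the product, and Klra3 and Klra6 in 4 and 11 cells, 1.61 and 1.83 times. Over all 21 pairs the summed count was 1.25 and 1.16 times the product, and 1.47 and 1.25 times after thinning to 2000 UMIs.

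Klra9 was found with Klra7 at 0.850 and 0.937 times the product, with Klra6 at 0.941 and 0.747 times and with Klra3 at 0.833 and 0.642 times. With Klra1 it was found at 1.16 and 1.08 times and with Klra8, in 1 and 4 cells, at 1.39 and 2.17 times. After thinning to 2000 UMIs the anti-IgG values turned, to 1.29 with Klra7, 2.23 with Klra6 and 1.94 with Klra3, from 8, 5 and 1 cells, while those of the anti-PD1 library were 0.917, 0.907 and 0.541. Klra6 with Klra7 stood at 2.35 and 1.54 times the product after thinning, and Klra1 with Klra7 at 1.43 and 1.44. The Klra3 and Klra9 coding sequences are the most alike of the members, at 95.9% identity. The activating pair Klra4 and Klra8 was seen at 25.0 and 20.7 times the product, which rests on the 3 and 7 Cd3-free cells named above, and neither was found in a cell of the gate with Klra6.

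**Figure D3:**
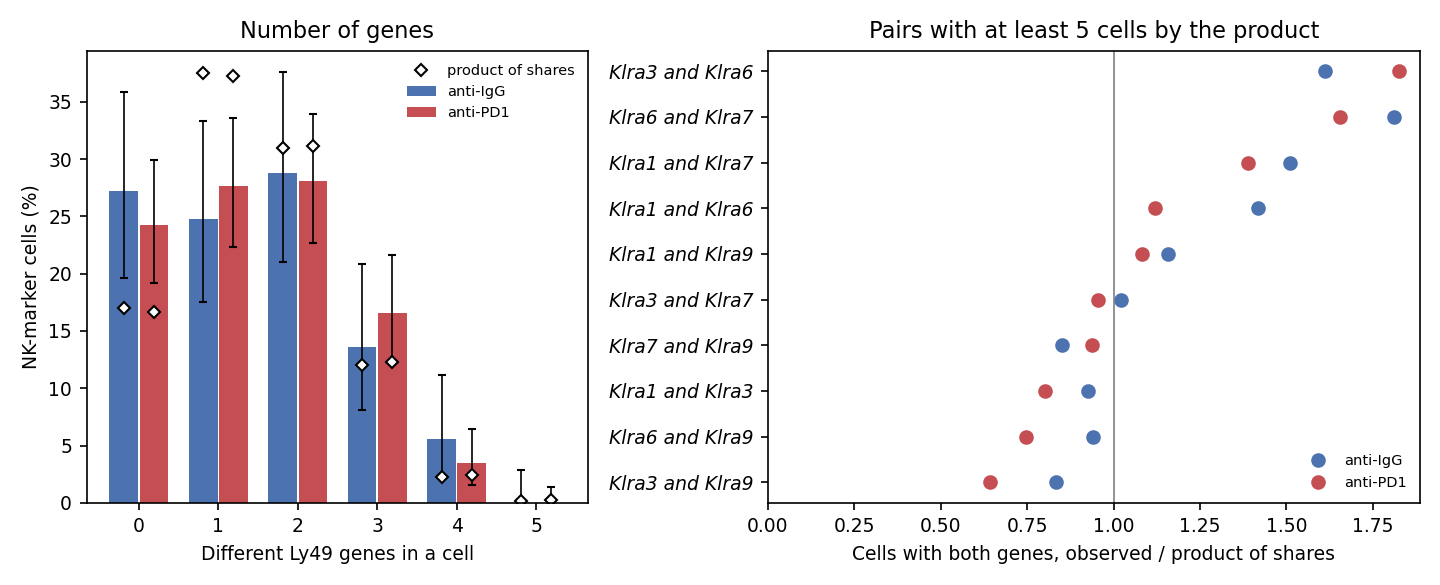
Left, the percent of NK-marker gate cells with each number of different Ly49 genes (bars) and the number given by the product of the single-gene shares (diamonds). Right, the observed number of cells with a pair of genes over the number given by the product, for pairs for which the product gives at least 5 cells in either library. Klra3 with Klra6, Klra6 with Klra7 and Klra1 with Klra7 lie highest and, at this full depth, pairs with Klra9 lie near or below 1.

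In cells rich in Ly49 UMIs the share of the leading gene, the one with the most UMIs, was taken. This share is high in any cell with few genes, and it was not compared with even sharing. Among the 53 anti-IgG and 86 anti-PD1 cells of the NK-marker gate with at least 5 Ly49 UMIs, the leading gene gave a median of 62.5% and 60% of them; 7 and 6 of these cells held 1 Ly49 gene only. It was Klra7 in 25 and 35 cells and Klra1 in 20 and 22. Klra9 led in 2 anti-IgG and 13 anti-PD1 cells.

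In the Cd8b1 gate, Ly49 transcripts were found in a small share of cells, mostly those with Ccl5, a chemokine of effector and memory CD8 T cells. A Ly49 UMI was found in 39 of 1154 anti-IgG cells (3.38%, interval 2.41% to 4.59%) and 63 of 1521 anti-PD1 cells (4.14%, interval 3.20% to 5.27%), and in 1.72% and 2.39% after thinning to 2000 UMIs. With a Ccl5 UMI the shares were 35 of 590 (5.93%) and 56 of 839 (6.67%), and without one 4 of 564 (0.709%) and 7 of 682 (1.03%). No member led here: Klra7 was found in 13 and 15 cells, Klra6 in 13 and 17, Klra9 in 9 and 21, Klra3 in 8 and 16 and Klra1 in 5 and 10.

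The Ly49 share in T cells moved with NK marker UMIs also below the threshold of the gate. These shares are at full depth and were not compared after thinning, and a deeper cell can show more UMIs of either kind. In the Cd8b1 gate it was 18 of 128 (14.1%) and 40 of 215 (18.6%) among cells with a single NK marker, and 21 of 1026 (2.05%) and 23 of 1306 (1.76%) among cells with none. In the other T gate it was 32 of 155 (20.6%) and 71 of 224 (31.7%) with a single marker, and 11 of 2562 (0.429%) and 20 of 3361 (0.595%) with none. The shares with no NK marker in the other T gate are not told apart from the background, which rests on 1 positive cell of the B and myeloid gates in each library.

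CD8 memory genes were higher in the Ly49-bearing cells of the Cd8b1 gate, and naive genes were lower. A gene was counted when its CPM in cells with a Ly49 UMI, over that in cells without, was past 1.5-fold with intervals excluding 1 in both libraries. That held upward for 0.549% and downward for 0.799% of the 10014 genes measured. Of 11 CD8 memory genes 6 were counted as higher and 0 as lower, and of 8 naive T cell genes 4 were counted as lower and 0 as higher.

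Among the memory genes, Eomes, a transcription factor of memory CD8 T and NK cells, was 3.52 (2.57 to 4.75) and 2.19 (1.61 to 2.91) times as high in the Ly49-bearing cells of the anti-IgG and anti-PD1 libraries. Xcl1, a chemokine for cross-presenting dendritic cells, was 3.42 and 2.70 times as high, Klrd1 (CD94, the partner of NKG2 receptors) 2.44 and 1.70 times, Klrk1 (NKG2D) 1.90 and 1.78 times, Il2rb, the beta chain of the IL-2 and IL-15 receptors, 2.12 and 1.65 times and Ccl5 1.63 and 1.53 times. Ikzf2, which encodes Helios, was 2.15 and 2.39 times as high. The naive genes Ccr7, Ccr9, Dapl1 and Igfbp4 stood at 0.539 and 0.427, 0.262 and 0.387, 0.297 and 0.340, and 0.488 and 0.201 times. Tyrobp had a lower CPM in these Ly49-bearing CD8 cells, at 0.549 and 0.150 times, but was found in slightly more of them, 10.3% and 11.1% against 7.26% and 7.96%, and single cells of the gate held up to 92 and 83 UMIs.

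The Ly49-bearing cells were deeper, with medians of 7865 and 6251 UMIs per cell against 5074 and 4779 without. After thinning to 2000 UMIs, Ccl5 was found in 78.4% and 87.1% of cells with Ly49 against 45.4% and 49.8% without, Klrd1 in 51.4% and 48.4% against 22.9% and 25.1%, and Ikzf2 in 13.5% and 19.4% against 6.64% and 5.35%. Ccr7, the lymph node homing receptor, was found in 29.7% and 25.8% against 44.8% and 50.5%. In the anti-IgG library the intervals with and without Ly49 overlapped for Ikzf2 and for Ccr7.

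**Figure D4:**
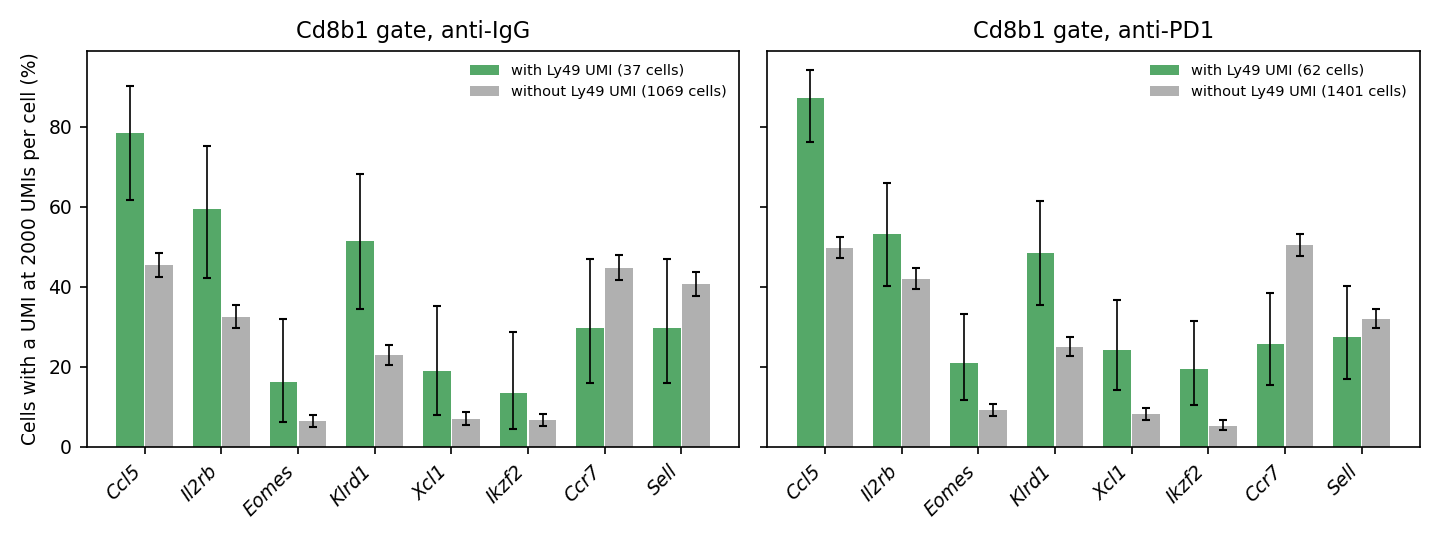
Percent of Cd8b1 gate cells with a UMI of 8 genes after thinning to 2000 UMIs, for cells with and without a Ly49 UMI in each library, with exact 95% intervals as error bars. Ccl5, Klrd1 and Il2rb stand higher in the Ly49-bearing cells and Ccr7 stands lower in both libraries. The intervals overlap for Il2rb in the anti-PD1 library and for Ccr7 in the anti-IgG library.

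The genes with the highest ratios in the Cd8b1 gate included receptor chains and a pseudogene of the family itself. Klra13-ps stood 33.3 and 8.13 times as high in Ly49-bearing cells, and shares transcript stretches with Klra7. Next came Klre1, a lectin-like receptor gene of NK cells and a marker of the NK-marker gate, at 7.86 and 6.92 times, Trgc4 and Trgc2, constant regions of the T cell receptor gamma chain, at 5.74 and 10.7 and at 3.44 and 3.13 times, and the alpha chain segment Trav12-2 at 4.31 and 4.31 times. Rbpms stood at 4.92 and 9.66 times, Scart2 at 3.82 and 5.22 times and 6330403K07Rik at 3.05 and 3.22 times. The last had an anti-IgG interval that includes 1. These genes lay in a minority of the 39 and 63 Ly49-bearing cells. Klra13-ps was found in 5 and 8 of them, Klre1 in 7 and 20, Trgc4 in 6 and 8 and Trgc2 in 9 and 5. Trav12-2 was found in 3 and 9, Rbpms in 7 and 9, Scart2 in 3 and 3 and 6330403K07Rik in 4 and 8. At full depth each share was above that of the cells without Ly49. The lowest were Cxcl2, Igkc, Rnase6 and Iglc2, genes of myeloid cells and B cells, each with 0 or 1 UMI in the Ly49-bearing cells but for 7 of Igkc in the anti-PD1 library. The Iglc2 interval of the anti-IgG library includes 1. A single anti-PD1 cell of the gate held 902 Igkc UMIs, the share of cells with Igkc was 6.35% with and 5.69% without Ly49 there, and without cells holding several B or myeloid markers its ratio was 1.14.

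In the NK-marker gate, with only 34 and 63 cells free of Ly49 UMIs, 0.384% and 1.04% of 5214 genes were counted as higher and lower in both libraries. Of 10 CD8 memory genes with enough UMIs only Klrk1 was counted as higher, at 2.09 and 2.15 times. Ikzf2 was higher too, at 3.77 and 2.37 times, and was found in 50.5% and 68.0% of Ly49-bearing cells against 26.5% and 42.9% of the others. Of 6 measured NK cell genes 0 were higher and Zeb2 was lower, and of 11 Ly49 signalling genes Syk, a kinase downstream of DAP12, was lower at 0.290 and 0.523 times.

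The highest ratios in that gate belonged to the beta chain segments Trbv12-1, at 10.2 and 5.50 times, and Trbv12-2, at 4.14 and 4.13 times, and to the lectin-like receptor gene Klrb1a at 8.06 and 3.11 times. Trbv12-1 lay in few cells, 10 of 91 and 16 of 197 with Ly49 and 1 of 34 and 4 of 63 without. Trbv12-2 was found in about the same share of cells with Ly49, 17.6% and 13.7%, as without, 17.6% and 11.1%, so its ratio came from UMIs per cell. Tanc1 stood at 3.08 and 3.46 times, Nudt16 at 3.29 and 2.75 times with an anti-PD1 interval that includes 1, and Gbp9, an interferon-induced GTPase, at 2.16 and 2.11 times. The lowest were H2-DMb2 at 0.0868 and 0.236 times, Cxcl2 at 0.0839 and 0.246, Cd14 at 0.0435 and 0.255 and Jdp2 at 0.263 and 0.355. In the gate 14 and 29 cells (11.2% and 11.2%) also held at least 2 B or at least 2 myeloid markers, with medians of 17731 and 16202 UMIs. Without them Ikzf2 stood at 4.06 and 1.82 times, Klrk1 at 1.53 and 1.81, and Syk at 0.0629 and 0.410. Klrb1a then had an anti-PD1 interval that includes 1, at 1.85 (0.921 to 4.21), as did Gbp9 in both libraries, at 1.70 (0.833 to 3.902) and 1.92 (0.993 to 4.16), and Nudt16 in both. Zeb2 lost its call as well, at 0.485 (0.202 to 1.24) and 0.659 (0.365 to 1.25). Jdp2 turned to 1.52 times in the anti-PD1 library, Cxcl2 turned to 1.64 times there with 6 against 0 UMIs in the anti-IgG library, and Cd14 had 1 UMI left.

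The other T gate joined cells with very different Ly49 content. Cells with Trdc, the constant region of the delta chain, had a Ly49 level of 2.08 and 7.91 CPM, and those with Cd4 and no Trdc one of 6.39 and 4.85, in 9 of 1428 and 9 of 1374 cells. Cells with neither stood at 42.3 and 51.6 CPM, in 32 of 954 (3.35%) and 72 of 1606 (4.48%). Those with a Cd8a UMI among the last had Ly49 in 5 of 26 (19.2%) and 14 of 76 (18.4%). The Trdc cells with a Ly49 UMI numbered 2 of 335 and 10 of 605.

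CD8 memory genes stood high in the Ly49-bearing cells of the other T gate too. Of 9 measured CD8 memory genes 6 were higher in both libraries and 0 lower, beside 1.46% higher and 1.88% lower of all 10875 genes. Xcl1 stood 12.3 and 26.7 times as high, Klrd1 16.7 and 12.1 times, Ccl5 5.81 and 6.39 times, Klrk1 5.24 and 2.64 times, Nkg7, a granule protein of cytotoxic cells, 4.27 and 4.07 times and Il2rb 3.62 and 2.64 times. Ikzf2 stood 4.03 and 3.70 times as high, Tbx21, the transcription factor T-bet, 2.26 and 2.19 times, and Cd4 at 0.269 and 0.236 times. Klrc1, which encodes the inhibitory receptor NKG2A, stood 10.2 and 5.52 times as high here, and 2.33 and 1.92 times in the Cd8b1 gate. The Ly49-bearing cells of the other T gate had medians of 4959 and 4538 UMIs per cell against 3718 and 3498. After thinning to 2000 UMIs, Klrd1 was found in 53.7% and 52.8% of cells with Ly49 against 4.53% and 4.92% without, and Xcl1 in 24.4% and 47.2% against 2.53% and 2.54%.

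Scaled to the UMIs of all kept cells, Ly49 transcripts stood higher in the anti-PD1 library. The 7 genes summed to 899 UMIs in anti-IgG and 1532 in anti-PD1 cells, 39.7 and 53.5 CPM, a ratio of 1.35 (1.24 to 1.47). Cells with any Ly49 UMI made up 176 of 4309 (4.08%) and 355 of 5835 (6.08%). UMIs lie together in cells, so the intervals of ratios are too narrow.

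Every member stood above 1 by that ratio, to differing degrees. Klra7 had 340 UMIs in the anti-IgG and 545 in the anti-PD1 library, a ratio of 1.27 (1.11 to 1.46), and Klra1 had 236 and 364, a ratio of 1.22 (1.03 to 1.44). Klra6 had 117 and 206, a ratio of 1.39 (1.10 to 1.76), Klra9 had 116 and 254, a ratio of 1.73 (1.38 to 2.18), and Klra3 had 62 and 100, a ratio of 1.28 (0.920 to 1.78). The activating genes had 19 and 41 UMIs for Klra4, a ratio of 1.71 (0.968 to 3.11), and 9 and 22 for Klra8, a ratio of 1.93 (0.856 to 4.77). A gene was counted as higher or lower between the libraries when its ratio was past 1.5-fold with an interval excluding 1 and it had at least 50 UMIs. Klra9 was counted as higher, 1 of the 6 members with enough UMIs, beside 5.14% higher and 12.1% lower of all 13608 genes. The median log2 ratio was 0.41 for those members and -0.13 for all genes.

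The NK-marker gate, where most of these UMIs lay, was itself a larger part of the anti-PD1 library, by a ratio of shares of 1.54 (1.24 to 1.92). Within the gate the 7 genes summed to 578 and 990 UMIs, or 542 and 501 CPM, a ratio of 0.924 (0.833 to 1.03). Per cell, all kept cells held 0.209 and 0.263 Ly49 UMIs, a ratio of 1.26. With the anti-PD1 per-cell levels of each gate weighted by the gate sizes of the anti-IgG library the ratio was 0.940. At that mix Klra1 stood at 0.802, Klra7 at 0.864, Klra3 at 1.01, Klra6 at 1.01, Klra4 at 1.15, Klra8 at 1.18 and Klra9 at 1.28.

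Within the NK-marker gate Klra1 had 183 and 270 UMIs, and its level was lower in the anti-PD1 library by a ratio of 0.796 (0.658 to 0.966) while the share of cells with it was 43.2% and 41.5%. Klra7 had 210 and 357, a ratio of 0.918 (0.772 to 1.09), Klra6 had 69 and 111, a ratio of 0.868 (0.637 to 1.19), Klra9 had 79 and 154, a ratio of 1.05 (0.797 to 1.40), and Klra3 had 22 and 43, a ratio of 1.05 (0.617 to 1.85). Of these 5 genes, 0 were past 1.5-fold with an interval excluding 1, beside 6.93% higher and 8.22% lower of 6858 genes in the gate. Their median log2 ratio was -0.12, against -0.08 for all genes. The activating genes together had 15 and 55 UMIs, a ratio of 1.98 (1.10 to 3.77), most of them in the 4 and 14 Cd3-free cells. Klra8 alone had 3 and 22, a ratio of 3.96 (1.19 to 20.7). With each cell weighted alike the ratios were 0.557 for Klra4 and 1.18 for Klra8, and with the gate drawn by Ncr1 alone or by at least 3 markers that of Klra9 was 2.58 (1.21 to 6.30) and 2.00 (1.21 to 3.47).

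Myeloid markers moved with the library in that gate, where 3 of 5 were higher and 0 lower and the list summed to 1028 and 1668 CPM. Of 2 B markers with enough UMIs 1 was lower, and the list of 4 summed to 123 and 97.8 CPM. Without the cells that held at least 2 B or at least 2 myeloid markers the Ly49 sum had a ratio of 0.910 (0.818 to 1.01).

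In the Cd8b1 gate Klra9 and Klra3 stood higher in the anti-PD1 library. Klra9 had 15 and 52 UMIs, a ratio of 2.80 (1.55 to 5.35), in 9 (0.780%) and 21 (1.38%) cells, and 1 anti-PD1 cell held 14 of the 52. Klra3 had 15 and 39 UMIs in 8 and 16 cells, a ratio of 2.10 (1.13 to 4.10). They were 2 of 4 members with enough UMIs, beside 4.92% higher and 9.56% lower of 10774 genes. Klra7, with 42 and 46 UMIs, had a ratio of 0.884 (0.569 to 1.38), and Klra6, with 27 and 37, a ratio of 1.11 (0.656 to 1.89). Klra8 had 6 UMIs in 2 anti-IgG cells and 0 in 1521 anti-PD1 cells, which allows a share of up to 0.197%.

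The 7 genes summed to 126 and 204 UMIs in the Cd8b1 gate, a ratio of 1.31 (1.04 to 1.65). All 4 B markers were higher in the anti-PD1 cells of this gate, at 47.1 and 119.5 CPM for the list, and of the 5 myeloid markers 0 were higher and 1 lower, at 1183 and 855. Without the cells holding several such markers the Ly49 ratio was 1.60 (1.26 to 2.04), and without the barcodes found in both libraries it was 1.53 (1.21 to 1.96). With the NK-marker gate drawn by Ncr1 alone it was 1.09 (0.916 to 1.31), and by at least 3 markers 1.14 (0.938 to 1.38), intervals that include 1. Among Cd8b1 cells with no NK marker the ratio was 1.04 (0.712 to 1.52), and among those with a single NK marker 1.37 (1.03 to 1.85).

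In the other T gate Klra6 and Klra9 stood higher in the anti-PD1 library. Klra6 had 21 and 57 UMIs, a ratio of 2.20 (1.31 to 3.81), in 10 and 36 cells, and Klra9 had 20 and 46, a ratio of 1.86 (1.08 to 3.32). They were 2 of 4 members with enough UMIs, beside 5.46% higher and 10.5% lower of 11638 genes. Klra1 had 38 and 70 UMIs, a ratio of 1.49 (0.990 to 2.27), Klra7 had 88 and 142, a ratio of 1.31 (0.993 to 1.72), and Klra3 had 24 and 18, a ratio of 0.607 (0.310 to 1.17).

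The sum in the other T gate was 191 and 333 UMIs, a ratio of 1.41 (1.18 to 1.69), and 43 (1.58%) and 91 (2.54%) cells had a Ly49 UMI. Of the 4 B markers 3 were higher, at 59.4 and 140.4 CPM for the list, and all 5 myeloid markers were lower, at 748 and 308. Without the cells holding several such markers the Ly49 ratio was 1.39 (1.16 to 1.68). Among cells with a single NK marker it was 1.52 (1.24 to 1.85) and among cells with none 1.29 (0.798 to 2.10). Within the Cd3-bearing cells that had neither Trdc nor Cd4 the ratio was 1.22 (0.994 to 1.502), and within Trdc cells, with few UMIs, 3.80 (1.31 to 15.0).

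**Figure D5:**
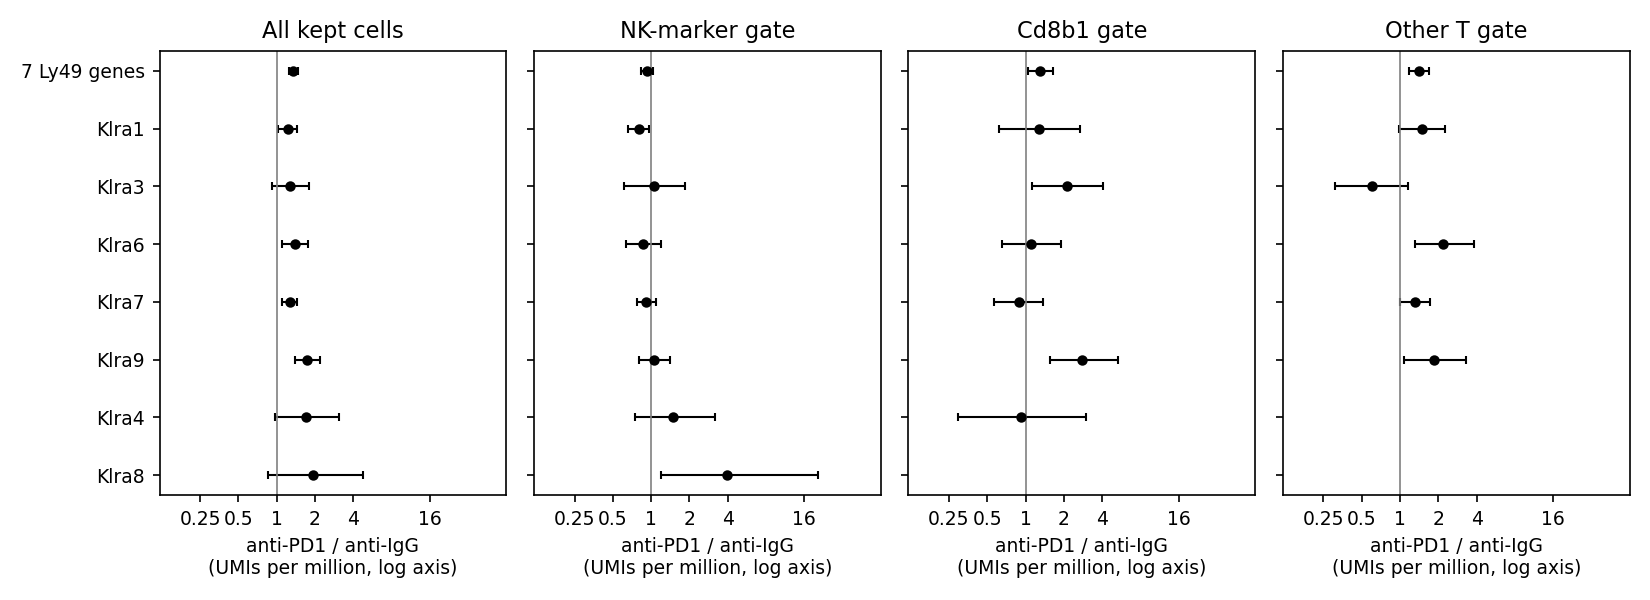
Ratio of CPM in the anti-PD1 over the anti-IgG library for each Ly49 gene and their sum, in all kept cells and in the NK-marker, Cd8b1 and other T gates, on a log axis with exact 95% intervals (no point where a library had 0 UMIs, as for Klra8 in the Cd8b1 gate and Klra4 and Klra8 in the other T gate). The sum lies at 1.35 over all cells and at 0.924 in the NK-marker gate, and Klra9 is the gene highest above 1 in the Cd8b1 gate.

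Some further genes of the family were measured as well. Klra5 (Ly49E) had 10 and 55 UMIs in 6 of 125 and 22 of 260 cells of the NK-marker gate, a ratio of 2.97 (1.499 to 6.53), and 13 and 78 over all kept cells, a ratio of 4.75 (2.62 to 9.31). Klra13-ps had 26 and 49 UMIs in the NK-marker gate, a ratio of 1.02 (0.620 to 1.71), and 41 and 66 in the Cd8b1 gate, where Klra7 itself had 42 and 46. Klra17 (Ly49Q), known from plasmacytoid dendritic cells, had 6 and 7 UMIs in the NK-marker gate, and Klra2 (Ly49B), known from myeloid cells, had 0 and 1.

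Few genes that act with the Ly49 receptors passed the same rule between the libraries inside the NK-marker gate. Over all genes of the gate 6.93% were higher and 8.22% lower. Of 11 signalling genes 1 was counted as higher, Syk at 1.59 times (1.05 to 2.45), and 0 as lower. Tyrobp stood at 1.31 times (1.18 to 1.46) and Ptpn6 at 0.835. Without the cells holding several B or myeloid markers, Syk had 3 and 21 UMIs in Ly49-bearing cells and 13 and 12 in the others. Tyrobp then had 178 and 604 UMIs in Ly49-bearing cells and 81 and 124 in the others. For these genes no library ratio of the whole gate was taken without those cells, so the Syk call was not checked against them. Of 6 genes for MHC class I ligands and their loading 0 passed: H2-D1 stood at 1.04, H2-K1 at 1.05, B2m, the light chain of class I, at 0.931 and the peptide transporter subunit Tap2 at 0.768. Of 9 measured regulators 2 were higher and 0 lower, Nfil3, a transcription factor of NK cell development, with 40 and 281 UMIs at 3.79 times (2.72 to 5.42), and Eomes at 1.63 times (1.12 to 2.44). Nfil3 was higher in the anti-PD1 library in the Cd8b1 and other T gates as well, at 3.24 and 3.42 times, where most cells carried no Ly49 gene.

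Over the 6 gates in each library, 12 values in all, the genes whose levels followed the Ly49 sum most closely were Kcnj8, Klrc2 and Arl4d (Pearson correlation of log2 levels 0.965 each), Qrfp and Spry2 (0.941), Cd200r4 (0.939), Xcl1 (0.919) and Klra13-ps (0.916), among 10592 genes. Klrc2 encodes the activating receptor NKG2C and stood at 145 and 85.1 CPM in the NK-marker gate against 8.48 and 9.43 in the Cd8b1 gate. The values within a library share its preparation and depth, and the correlation is a description of gate levels.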

How the data were processed

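The authors deposited unnormalized UMI counts for each gene and barcode. Cell Ranger 7.1.0 made them per the file headers; Cell Ranger 7.2.0, Seurat 4.4.0 and mm10 stand in the submitters' processing notes. No annotation is named in the sources used here. Per the labels' protocols a 10x 3′ kit was used; barcode starts resemble another kit version, which was not checked against a barcode list.

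A cell was kept if it had at least 300 genes, at least 500 UMIs and no more than 10% mitochondrial UMIs. UMIs were summed per gate and library and divided by the gate's total (CPM); ratios have exact 95% intervals conditional on the summed UMIs, and shares exact Clopper-Pearson intervals. A count of 0 was given a limit of 3 counts. For thinning, each cell was drawn down to 2000 UMIs. Genes with at least 50 UMIs in both libraries together entered the counts between libraries, and those with at least 30 in each library the counts with against without a Ly49 UMI. Scrublet in scanpy 1.11.5 marked 0 and 4 cells by its automatic threshold and had not worked, so no doublets were removed from the main values; removal of the 149 and 272 highest-scoring cells (0.8% per 1000 cells) was an alternative. B gate cells had at least 2 of 4 B markers and myeloid gate cells at least 2 of 5 myeloid markers, without Cd3.

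All 7 members were named. From each list up to 4 genes were named by highest and lowest ratio, with the 8 genes most like the Ly49 sum (at least 200 UMIs, log2 of CPM plus 10) and the 8 highest and 4 lowest ratios with against without Ly49; other genes were named because a result turned on them. Members and lists were chosen with earlier results of these data known. Python 3.11.15, numpy 2.4.6, scipy 1.17.1, pandas 2.3.3, Biopython 1.88 and matplotlib 3.10.9 were used, and the procedure was tested on simulated data.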

Additional observations from a re-analysis of the deposited data

How the results depend on the processing

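No paired analysis was possible because each group was 1 library, and leaving out a replicate was not possible for the same reason. Over all alternatives the Ly49 sum ratio ran from 1.31 to 1.46 in all kept cells, from 0.798 to 0.955 in the NK-marker gate, from 1.09 to 1.60 in the Cd8b1 gate and from 1.23 to 1.67 in the other T gate. A reversal was defined only for ratios whose main interval excluded 1, and 0 were found. Shares and the sum ratio of the NK-marker gate could therefore not count as reversed. Of 121 values of the main results, 87 stayed within their spread and 34 moved. What moved was mostly the gate itself. With Ncr1 alone as the marker, the gate held 0.557% and 1.03% of anti-IgG and anti-PD1 cells, 16.9% and 19.2% of the Ly49 UMIs, at least 2 genes in 66.7% and 56.7% of its cells and any Ly49 gene in 81.7% of its anti-PD1 cells, and the sum ratio was 0.798 (0.654 to 0.977). With Ncr1 or Klrb1c, any Ly49 gene was found in 62.7% and 68.2%, the share of Ly49 UMIs was 49.1% and 50.5%, at least 2 genes were found in 39.0% of anti-IgG cells and the gate held 3.77% of anti-PD1 cells. With at least 3 markers, the gate held 1.04% and 1.75% of cells and 27.8% and 36.2% of the Ly49 UMIs, with any gene in 82.2% and 89.2% and at least 2 genes in 62.2% and 59.8%. Depth limits detection. Thinned to 2000 UMIs, any gene was found in 57.4% and 58.5% and at least 2 genes in 26.2% and 24.5%; thinned to 1000, in 42.7% and 45.4% and in 12.9% and 10.4%. With at least 2 UMIs required, the shares were 61.6% and 60.4% for any gene, and 29.6% and 26.2% for at least 2 genes. Thinned to 2000 UMIs, the Klra3 ratio in the NK-marker gate was 2.25 (0.628 to 12.2). Leaving out cells with several B or myeloid markers, and leaving out barcodes found in both libraries, were alternatives chosen after the data were seen.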
